A study of Rattus norvegicus with 325 samples.

Results

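The genes described here are 5 sarcomere genes of developing muscle, Myh3, Myh8, Actc1, Myl4 and Tnnt2, followed by their symbols through every library of a rat muscle ageing series. Each of the 5 was listed on a single line of the count files, among 17315 distinct gene symbols, and each of the 5 was tested in every muscle. The series holds bulk RNA sequencing libraries, 83 of the diaphragm, 73 of the gastrocnemius, 84 of the soleus and 85 of the tibialis anterior, from male Sprague Dawley rats, an outbred strain, at 7 ages, which were 6, 9 and 12 months, 18 and 21 months, and 24 and 27 months. The labels name no treatment, and each of the 28 groups of a muscle and an age held 9 to 13 libraries. All tissues of an age were collected on one day, and the effect of that day cannot be told apart from age. Within a muscle each library came from its own rat by the study's supplement, but the labels do not say which libraries of different muscles share a rat.

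The sarcomere, the contractile unit of the fibre, is built from proteins that exist in developmental and adult versions. Embryonic and newborn fibres use myosin heavy chains, actin, myosin light chains and troponin T that are replaced around birth, while the heart keeps some of the same genes for life. In adult skeletal muscle these early genes are low, and they are known to return in regenerating and in denervated fibres. Myh3 encodes the embryonic and Myh8 the perinatal myosin heavy chain, which are the motor proteins of the thick filament. Actc1 encodes cardiac alpha-actin, the thin filament actin of the embryo's muscle and of the heart. Myl4 encodes an embryonic and atrial essential light chain of myosin, and Tnnt2 encodes cardiac troponin T, which ties the calcium-sensing troponin complex to the thin filament.

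The promoter windows of 3 of the genes that were higher in all 4 muscles at 27 months are shown. The sets of muscle motifs matched in them are not the same. Those of Myh3 and Tnnt2 share the E-box, and that of Actc1 shares no motif with them. Myl4 was also higher in all 4 muscles, and only the motif counts of its window are given. The windows run from 250 bases before to 50 bases after the start of the gene and come from RefSeq on the GRCr8 build, a later build than that of the counts. Capitals mark matches to 4 motifs, searched on both strands, namely the E-box CANNTG of the myogenic factors, the MCAT box CATTCC of the TEAD factors, the MEF2 site and the CArG box of serum response factor. They are Myh3 at chr10:52268935-52269234 on the plus strand, Actc1 at chr3:121271778-121272077 on the minus strand and the first of 2 Tnnt2 windows at chr13:49818873-49819172 on the plus strand, each written 5′ to 3′.
Myh3: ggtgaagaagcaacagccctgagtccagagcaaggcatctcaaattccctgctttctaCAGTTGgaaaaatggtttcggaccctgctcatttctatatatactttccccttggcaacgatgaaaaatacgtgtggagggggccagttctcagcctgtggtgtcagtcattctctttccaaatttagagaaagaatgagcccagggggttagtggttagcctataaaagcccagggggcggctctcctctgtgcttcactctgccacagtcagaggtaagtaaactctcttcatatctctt
Actc1: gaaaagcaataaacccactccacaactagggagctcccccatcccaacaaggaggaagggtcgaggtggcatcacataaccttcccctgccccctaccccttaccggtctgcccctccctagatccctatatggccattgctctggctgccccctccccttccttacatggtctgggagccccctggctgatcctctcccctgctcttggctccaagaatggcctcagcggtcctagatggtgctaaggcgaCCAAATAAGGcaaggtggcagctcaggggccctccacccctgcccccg
Tnnt2: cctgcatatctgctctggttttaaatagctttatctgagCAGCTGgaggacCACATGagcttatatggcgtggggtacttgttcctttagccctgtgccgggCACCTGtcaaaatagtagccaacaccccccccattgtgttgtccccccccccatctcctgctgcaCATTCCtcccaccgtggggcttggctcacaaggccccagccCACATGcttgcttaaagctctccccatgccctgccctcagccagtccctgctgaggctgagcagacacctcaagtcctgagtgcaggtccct

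The Myh3 window held 1 E-box, 192 bases before the start. The first Tnnt2 window held 4 E-boxes, which are the capitals other than CATTCC, and 1 MCAT box 83 bases before the start. The Actc1 window held 1 CArG box, which opened at base 3 after the start. The Myl4 window (chr10:89975900-89976199, plus strand) held 3 E-boxes, the second Tnnt2 window (chr13:49823809-49824108, plus strand) held 1, and that of Myh8 (chr10:52462259-52462558, plus strand) held none of the 4 motifs. Of 33469 rat promoter windows of this length 72.1% held an E-box, 14.2% an MCAT box, 3.29% a MEF2 site and 1.64% a CArG box. An E-box match in these windows was therefore common, and no member window held a MEF2 match. Myh3 and Myh8 stand in one row of myosin genes on chromosome 10, in the order Myh3, Myh2, Myh1, Myh4, Myh8 and Myh13.

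Depth ran from 17.6 M to 85.3 M counts a library (median 31.9 M, where M is mega). Levels are given as counts per M counts (CPM), scaled with TMM factors (trimmed mean of M values) over all libraries. CPM is not corrected for transcript length, so levels are compared between libraries and not between genes. Changes are log2 fold changes against 6 months from limma-voom with their standard error (SE), and a call needed both a change over 1.5-fold and a p, adjusted by Benjamini-Hochberg over all genes of the comparison, under 0.05. In bulk RNA, fewer or more fibres that make a transcript and a change in the amount per fibre cannot be told apart. The running numbers in the sample descriptions form 3 runs, and in the diaphragm, soleus and tibialis anterior the 12-month libraries lie in a run of their own with 1 library each of 21 months, while the gastrocnemius has a run to itself.

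Across the 4 muscles most of the developmental genes were higher at 27 than at 6 months, while at 9 and 12 months only Myl4 was called, at 12 months in the diaphragm and the gastrocnemius. All 5 genes rose at 27 months in the tibialis anterior and soleus, and in the diaphragm and gastrocnemius all but Myh8 did. With all libraries none of them was called lower at any age. From 9 to 27 months, in order of age, the count of called members was 0, 1, 0, 1, 2 and 4 in the diaphragm, where 0.108%, 0.532%, 2.25%, 1.68%, 2.68% and 7.52% of all genes tested were called. In the gastrocnemius it was 0, 1, 3, 4, 4 and 4, against 0.143%, 0.885%, 4.32%, 5.81%, 18.8% and 22.8% of all genes. At 21 months edgeR and DESeq2 each called 4 members in the gastrocnemius and 4 in the tibialis anterior. The shares of all genes given here are those of limma-voom and are not the background of these counts.

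In the soleus the count was 0, 0, 1, 1, 3 and 5 (2 at 24 months without replicate 6, Myl4 higher and Tnnt2 lower), against 0.123%, 0.353%, 2.84%, 2.61%, 6.51% and 15% of all genes, and in the tibialis anterior it was 0, 0, 2, 2, 4 and 5, against 0.00851%, 0.196%, 5.45%, 6.47%, 14.5% and 27.6%. Counting rises alone, 17.2% of all genes were called higher at 27 months in the tibialis anterior, 9.21% in the soleus, 15.1% in the gastrocnemius and 3.27% in the diaphragm. The split of higher and lower calls over all genes turned towards higher with total-count scaling, from 1787 of 2708 calls higher to 3267 of 3632 in the gastrocnemius, from 2026 of 3245 to 3621 of 4064 in the tibialis anterior and from 1121 of 1825 to 1620 of 2086 in the soleus, and the members called at 27 months stayed at 4, 5 and 5. Where limma-voom called none of the 5 genes, an unadjusted p under 0.05 was reached by Actc1 in the soleus at 9 and at 12 months and by no member in the diaphragm at 9 and 18 months, the gastrocnemius at 9 months or the tibialis anterior at 9 and 12 months, and edgeR and DESeq2 called 0 in each of these comparisons. With the Bonferroni adjustment that the study's methods name, the 27-month counts were 5 in the tibialis anterior, 4 in the soleus, 4 in the gastrocnemius and 1 in the diaphragm, and the counts at 18 and 21 months in the gastrocnemius were 0. The shares of all genes above are those of Benjamini-Hochberg calls and are not the background of these Bonferroni counts. All genes called with Bonferroni at 27 months are given further on for the diaphragm and soleus alone. The plot of all libraries shows the levels behind these counts.

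**Figure D1:**
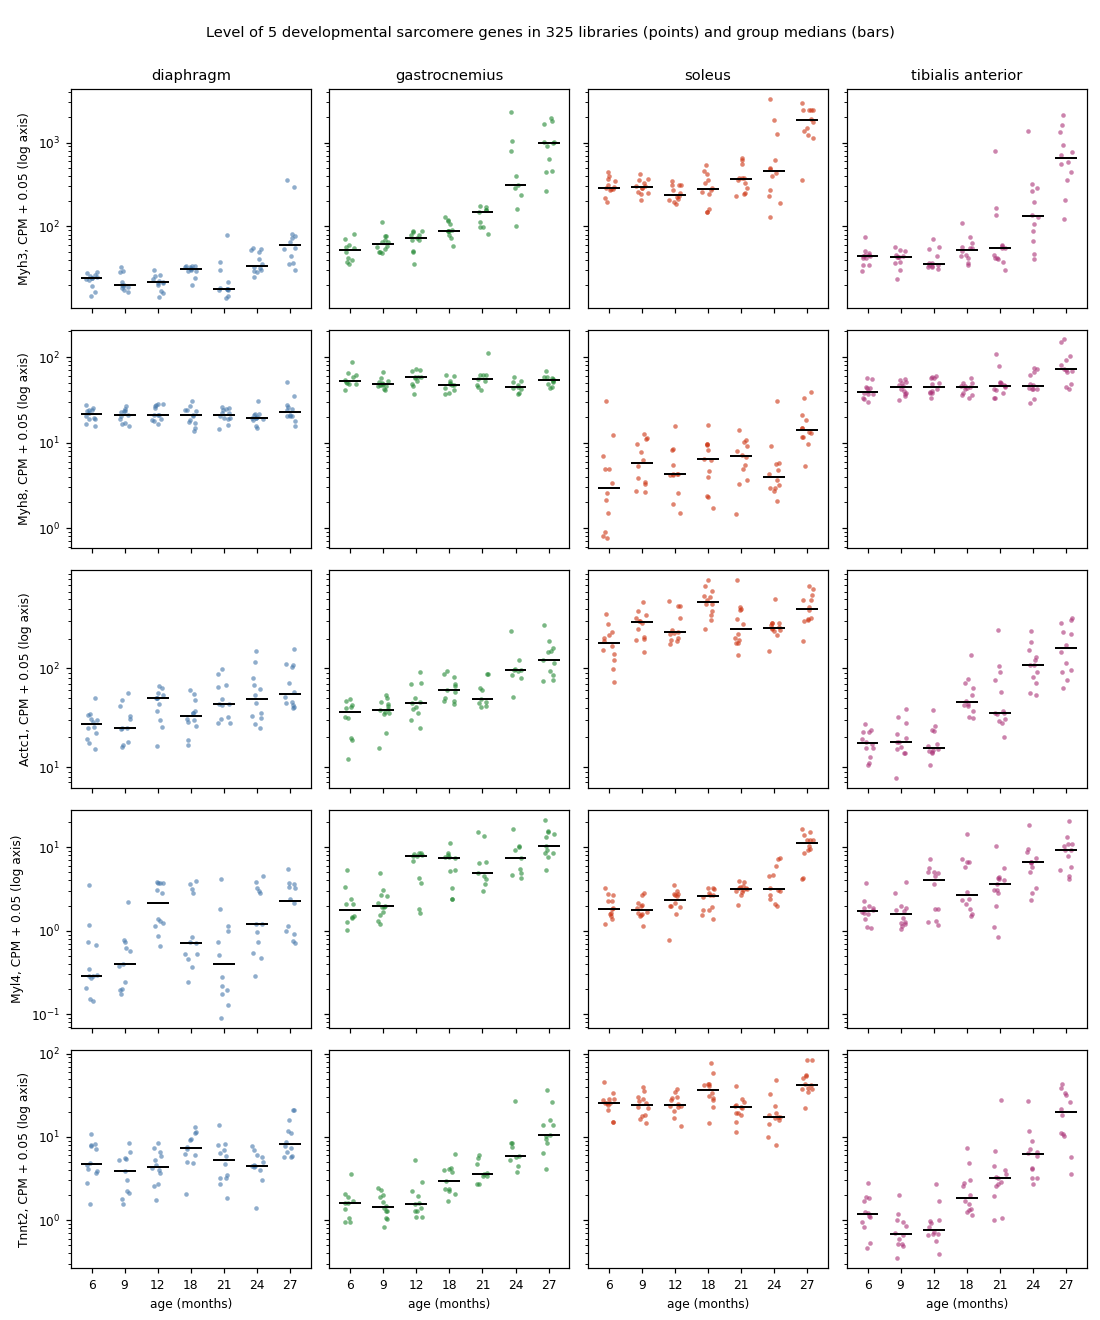
Level of each gene (rows) in each muscle (columns) by age in months, as CPM plus 0.05 on a log axis, with 1 point a library and a bar at the group median. The 27-month Myh3 points lie above the 6-month points in all 12 diaphragm, all 11 gastrocnemius and all 12 tibialis anterior libraries, and in 11 of 12 soleus libraries.

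Myh3, the embryonic myosin heavy chain, rose in all 4 muscles at 27 months. In the gastrocnemius it stood at 35.4, 52.3 and 81.4 CPM (lowest, median and highest library) at 6 months and at 266, 991 and 1934 CPM at 27 months. The groups did not overlap, and the change was 4.07 (SE 0.29, 16.8-fold, adjusted p = 1.3e-19). In the soleus it stood at 196, 288 and 449 CPM at 6 months and at 353, 1849 and 2973 CPM at 27 months. All but the lowest 27-month soleus library lay above every 6-month library, and the change was 2.45 (SE 0.29, 5.48-fold, adjusted p = 1.3e-11).

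Myh3 in the tibialis anterior stood at 29.4, 44.4 and 75.5 CPM at 6 months and at 123, 651 and 2148 CPM at 27 months, with no overlap and a change of 3.79 (SE 0.37, 13.9-fold, adjusted p = 4.2e-15). In the diaphragm it stood at 14.7, 24.2 and 28.6 CPM at 6 months and at 29.8, 60.3 and 362 CPM at 27 months. These groups did not overlap either, although 2 libraries, at 298 and 362 CPM, lay far above the others, the next of which held 81.2 CPM, and the change was 1.60 (SE 0.23, 3.02-fold, adjusted p = 3.0e-08).

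The spread of Myh3 between libraries was wider at 27 than at 6 months in every muscle. The SD of its log2 CPM was 0.34 in the tibialis anterior, 0.34 in the soleus, 0.40 in the gastrocnemius and 0.30 in the diaphragm at 6 months, and 1.19, 0.83, 0.91 and 1.13 at 27 months, from 2.27 to 3.78 times as wide. At 27 months the highest tibialis anterior library held 17.5 times the Myh3 of the lowest. A wide spread was already present at 24 months, when Myh3 ran from 130 to 3265 CPM in the soleus, from 100.5 to 2326 CPM in the gastrocnemius and from 41.2 to 1368 CPM in the tibialis anterior. One tibialis anterior library of 21 months, replicate 7, held 796 CPM of Myh3, where the median of its group was 55.2 and the next highest library held 167 CPM. The same library held the highest level of its group for each of the other 4 genes, with 28.01 CPM of Tnnt2, 245 CPM of Actc1, 109 CPM of Myh8 and 10.3 CPM of Myl4.

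Calls of Myh3 began at 18 months in the gastrocnemius and at 24 months in the other muscles. In the gastrocnemius the median moved from 61.1 CPM at 9 months to 71.9, 88.6, 147 and 309 CPM at 12, 18, 21 and 24 months, and the change at 18 months was 0.84 (SE 0.27, adjusted p = 0.028). In the tibialis anterior the medians at 12, 18, 21 and 24 months were 35.9, 52.7, 55.2 and 133 CPM, and the change at 24 months was called (1.75, SE 0.35, adjusted p = 1.7e-05). In the soleus the medians were 239, 280, 367 and 454 CPM, and the rise called at 24 months (0.77, SE 0.28, adjusted p = 0.026) was not called without replicate 6, the library with 3265 CPM (0.52, SE 0.26, adjusted p = 0.12). In the diaphragm the median was 34.1 CPM at 24 months, where the change was first called (0.71, SE 0.24, adjusted p = 0.039). At 18 months 10 of 12 diaphragm libraries already lay above every 6-month library, as did 8 of 11 in the gastrocnemius. The diaphragm change of 18 months was not called (0.37, SE 0.24, adjusted p = 0.25), and that of 21 months was -0.06 (SE 0.25). Whether the muscles differed in the age at which Myh3 rose was not tested. By the trend fit of log2 CPM on age, Myh3 was of the late rising class, with an inflection after 21 months, in all 4 muscles. In the tibialis anterior the inflection lay at 27.0 months, the last age and the end of the search, so the fit did not place it within the ages.

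**Figure D2:**
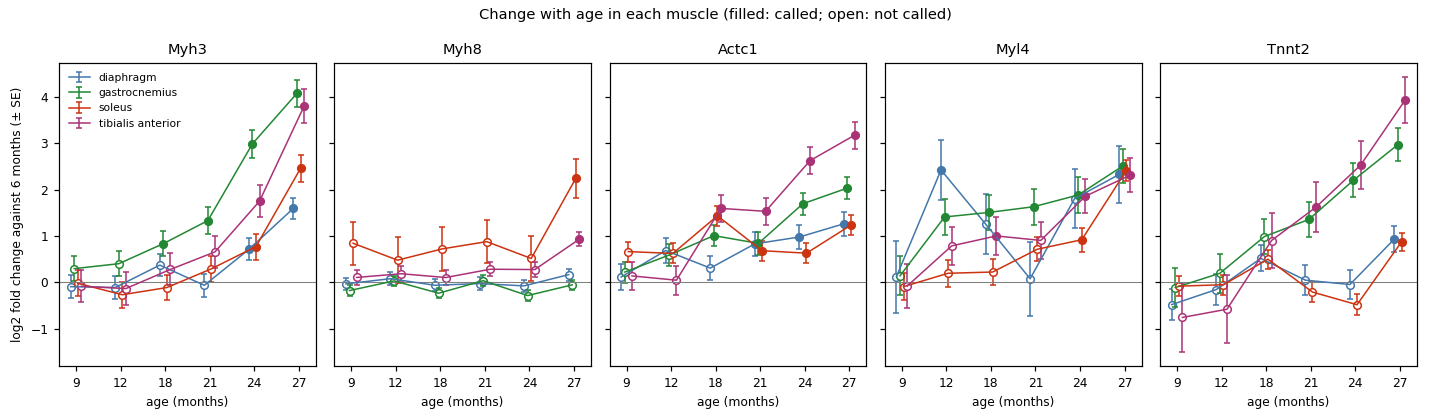
Log2 fold change against 6 months with its SE (vertical axis) at each later age in months (horizontal axis), 1 panel a gene and 1 colour a muscle, with filled points where the change was called. Myh3 is called from 18 months in the gastrocnemius and from 24 months in the other muscles. Myh8 stays near 0 in the diaphragm and gastrocnemius, and the Myl4 changes of the 4 muscles meet at 27 months between 2.31 and 2.51.

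Myh8, the perinatal myosin heavy chain, was the gene of the 5 that changed in the fewest muscles. In the gastrocnemius it stood at 41.6, 52.3 and 88.2 CPM at 6 months and at 43.6, 54.2 and 68.0 CPM at 27 months, with a change of -0.05 (SE 0.11, adjusted p = 0.71) that turned positive, to 0.23, with total-count scaling. In the diaphragm it stood at 15.5, 21.4 and 27.3 CPM and at 15.7, 22.4 and 50.8 CPM, with a change of 0.17 (SE 0.13, adjusted p = 0.29). The ages overlapped over most of their range in both muscles, and neither change was called.

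Myh8 rose in the other pair of muscles. In the tibialis anterior it stood at 29.5, 39.1 and 57.0 CPM at 6 months and at 41.9, 71.5 and 160 CPM at 27 months, with 9 of 12 libraries above the highest of 6 months, and the change was 0.93 (SE 0.16, 1.91-fold, adjusted p = 2.1e-07). In the soleus, where Myh8 was lowest, it stood at 0.723, 2.93 and 30.3 CPM at 6 months and at 5.24, 13.9 and 39.5 CPM at 27 months. Only 2 of the 12 old soleus libraries lay above the highest young one, while all 12 lay above the young median. The change was 2.24 (SE 0.41, 4.73-fold, adjusted p = 3.2e-06), and edgeR and DESeq2, which fit the counts themselves, gave 1.54 with each tool. The SD of Myh8 in the young soleus was 1.65 on the log2 scale, against 0.25 to 0.30 in the other muscles.

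The soleus rise of Myh8 came with rises of adult fast-fibre genes. Mylpf, the fast regulatory light chain, stood at a median of 113 CPM in the soleus at 6 months and of 886 CPM at 27 months, a change of 2.94 (SE 0.36). Over the 84 soleus libraries, with their age means removed, the Pearson correlation of Myh8 with Mylpf was 0.219 and with the fast myosin Myh4 -0.126, in counts of the same libraries. With Myh1, Tnnt3, Myh2 and Myl1 it was -0.0622, 0.106, 0.107 and 0.267. The part of fast-fibre content in the Myh8 change was not tested. By trend Myh8 was late in the tibialis anterior (inflection at 27.0 months, the end of the search) and linear in the soleus, and it had no trend in the diaphragm or the gastrocnemius.

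Actc1, the cardiac alpha-actin, rose at 27 months in all 4 muscles. In the tibialis anterior it stood at 10.47, 17.5 and 27.0 CPM at 6 months and at 63.0, 160.0 and 324.8 CPM at 27 months, without overlap, a change of 3.17 (SE 0.29, 9-fold, adjusted p = 2.4e-16). In the gastrocnemius it stood at 11.9, 36.0 and 49.1 CPM and at 75.3, 122 and 278 CPM, again without overlap, a change of 2.03 (SE 0.23, 4.09-fold, adjusted p = 9.5e-12). Both fast limb muscles were thus separated completely between the youngest and the oldest age.

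The other muscles overlapped between these ages. In the soleus Actc1 stood at 73.2, 179 and 357 CPM at 6 months and at 187, 400.4 and 675 CPM at 27 months, with 7 of 12 libraries above the young range and a change of 1.24 (SE 0.22, adjusted p = 1.0e-06). In the diaphragm it stood at 15.1, 27.1 and 49.96 CPM and at 40.0, 54.4 and 157 CPM, also with 7 of 12 libraries above the young range and a change of 1.26 (SE 0.26, adjusted p = 3.2e-05).

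The course of Actc1 was linear by the trend fit in all 4 muscles, except that with total-count scaling it was late in the tibialis anterior (inflection at 25.75 months). Its first call came at an earlier age than that of Myh3 in the tibialis anterior, soleus and diaphragm, and at the same age in the gastrocnemius. At 18 months it was already higher in the tibialis anterior (median 45.1 CPM, change 1.59, SE 0.29, adjusted p = 8.2e-06), the soleus (474 CPM, 1.44, SE 0.22, adjusted p = 3.8e-07) and the gastrocnemius (60.0 CPM, 1.01, SE 0.23, adjusted p = 0.0013). The soleus median then stood lower, at 252 CPM at 21 months and 258 CPM at 24 months, so that its highest median was that of 18 months. The soleus call of 24 months (0.63, SE 0.21) was not kept without replicate 6 (0.54, SE 0.22), which was under 1.5-fold. In the diaphragm Actc1 was first called at 21 months (0.83, SE 0.26, adjusted p = 0.030).

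Acta1, the adult skeletal alpha-actin, is a near-identical paralog of Actc1, and how the authors' counting assigned reads that fit both genes is not given in the sources used here. Actc1 counts were a median of 0.0334% to 0.448% of the Acta1 counts of the same library at 6 months and of 0.15% to 1.19% at 27 months over the 4 muscles. The highest ratio in a library was 2.78%, in the soleus at 27 months. Over all libraries, with group means removed, the Pearson correlation of Actc1 with Acta1 was -0.0457. The myosin heavy chain genes are also similar in sequence, so the levels of Myh3 and Myh8 carry the same limit.

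Myl4, the embryonic and atrial light chain, rose at 27 months in every muscle. In the soleus it stood at 1.15, 1.79 and 3.15 CPM at 6 months and at 4.11, 11.1 and 16.4 CPM at 27 months, without overlap, a change of 2.41 (SE 0.22, 5.31-fold, adjusted p = 1.6e-15). In the gastrocnemius it stood at 0.958, 1.74 and 5.32 CPM and at 5.33, 10.1 and 21.2 CPM, a change of 2.51 (SE 0.36, 5.68-fold, adjusted p = 1.3e-08). The lowest old gastrocnemius library only just exceeded the highest young one.

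Myl4 in the tibialis anterior stood at 1.04, 1.67 and 3.63 CPM at 6 months and at 4.11, 9.18 and 20.3 CPM at 27 months, without overlap, a change of 2.31 (SE 0.37, 4.95-fold, adjusted p = 4.5e-08). In the diaphragm it stood at 0.0945, 0.239 and 3.46 CPM and at 0.661, 2.22 and 5.37 CPM, a change of 2.33 (SE 0.61, adjusted p = 0.0012). The diaphragm groups overlapped, with 3 of 12 old libraries above the young range, and the young libraries held only 3 to 125 counts of Myl4.

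Myl4 was the gene of the 5 with calls in the 12-month group. Its median at 12 months was 7.74 CPM in the gastrocnemius, 4.00 CPM in the tibialis anterior, 2.31 CPM in the soleus and 2.07 CPM in the diaphragm. The rises at 12 months were called in the gastrocnemius (1.41, SE 0.38, adjusted p = 0.032) and the diaphragm (2.42, SE 0.64, adjusted p = 0.019), but neither was called with Bonferroni adjustment and that of the gastrocnemius was not called with sample quality weights (1.21, adjusted p = 0.061). In the diaphragm the median was 0.672 CPM at 18 months and 0.345 CPM at 21 months. Outside the gastrocnemius, the 12-month group cannot be told apart from its run of running numbers. The single 21-month libraries of that run ranked second of 12 for Myl4 in the diaphragm (1.78 CPM) and second of 12 in the soleus (3.74 CPM), and the sixth of 13 in the tibialis anterior (3.94 CPM), and leaving them out changed no call of a member at 21 months. By trend Myl4 was linear in the gastrocnemius and tibialis anterior, late in the soleus (inflection at 27.0 months, the end of the search) and without a trend in the diaphragm.

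Tnnt2, the cardiac troponin T, rose in all 4 muscles at 27 months, from its lowest young levels in the tibialis anterior and gastrocnemius. In the tibialis anterior it stood at 0.410, 1.13 and 2.71 CPM at 6 months and at 3.55, 20.0 and 43.3 CPM at 27 months, without overlap, a change of 3.93 (SE 0.50, 15.2-fold, adjusted p = 7.5e-11). In the gastrocnemius it stood at 0.892, 1.58 and 3.56 CPM and at 4.06, 10.49 and 36.3 CPM, also without overlap, a change of 2.97 (SE 0.35, 7.83-fold, adjusted p = 2.0e-11). Every old library of these 2 muscles exceeded every young one.

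In the soleus Tnnt2 stood at 14.9, 25.6 and 45.9 CPM at 6 months and at 22.5, 42.4 and 84.2 CPM at 27 months, a change of 0.88 (SE 0.20, 1.84-fold, adjusted p = 1.0e-04). In the diaphragm it stood at 1.53, 4.65 and 10.9 CPM and at 5.72, 8.22 and 20.9 CPM, a change of 0.94 (SE 0.27, 1.91-fold, adjusted p = 0.0035). In each of these 2 muscles 5 of 12 old libraries lay above the young range. Neither change passed the Bonferroni adjustment.

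The soleus level of Tnnt2 did not follow age in one direction. Its median was 36.8 CPM at 18 months and 17.2 CPM at 24 months, below the 25.6 CPM of 6 months, and the 24-month change was -0.48 (SE 0.22, adjusted p = 0.092). Without replicate 6 of the 24-month soleus, which had the highest Tnnt2 of its group at 48.9 CPM, this change was -0.60 (SE 0.22, adjusted p = 0.034) and was called lower. In the gastrocnemius the medians of Tnnt2 were 2.88, 3.53 and 5.81 CPM at 18, 21 and 24 months, with the first call at 21 months (1.36, SE 0.38, adjusted p = 0.0079). Tibialis anterior medians were 1.81, 3.16 and 6.11 CPM, with the first call at 21 months (1.62, SE 0.54, adjusted p = 0.019), which remained without replicate 7 (1.40, SE 0.53, adjusted p = 0.047). The trend of Tnnt2 was late and rising in the 3 limb muscles, each with its inflection at 27.0 months, the end of the search, and it had none in the diaphragm.

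By call and trend together 5 of the 5 genes were age-related in the tibialis anterior, 5 in the soleus, 4 in the gastrocnemius and 2 in the diaphragm, where 26.8%, 12.6%, 23.3% and 6.7% of all genes tested were. With a wider margin for the trend, a difference of 10 in the Bayesian information criterion (BIC) in place of 6, Myh8 and Tnnt2 left the soleus count.

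To ask where the developmental genes are found in young and in old muscle, the muscles were compared with each other at 6 and at 27 months in one fit of all groups. At 6 months the soleus held the most Myh3, Actc1 and Tnnt2 and the least Myh8, and the diaphragm held the least Myh3 and Myl4. Between the diaphragm and soleus all 5 genes differed at 6 months (23.9% of all genes did) and all 5 at 27 months (27.9%). Between the diaphragm and tibialis anterior all 5 differed at both ages (35.1% and 27.4%), and between the diaphragm and gastrocnemius 4 did at each age (37.3% and 32.3%). The gastrocnemius cannot be told apart from its own run of numbers in any of these pairs.

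Among the limb muscles the slow soleus stood apart. It differed from the gastrocnemius in 4 of the 5 genes at 6 months (45.4% of all genes) and in 4 at 27 months (34%), and from the tibialis anterior in 4 at each age (42.9% and 31.7%). The gene left out of each of these counts was Myl4. The gastrocnemius and tibialis anterior, both largely fast, differed in Actc1 alone at 6 months (17.3% of all genes) and in no member at 27 months (10.4%). At 27 months an unadjusted p under 0.05 was reached by Myh8 and Tnnt2 between these 2 muscles, and edgeR and DESeq2 each called 1 member, Myh8.

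The order of the muscles was much the same at both ages for Myh3. At 6 months the soleus led, followed by the gastrocnemius and tibialis anterior, which did not differ beyond their spread (0.22, SE 0.31, adjusted p = 0.57), and then the diaphragm, which was 0.93 below the tibialis anterior on the log2 scale (difference -0.93, SE 0.31, adjusted p = 0.0042). At 27 months the soleus still exceeded the gastrocnemius (difference gastrocnemius minus soleus -0.93, SE 0.32, adjusted p = 0.0073), the gastrocnemius and tibialis anterior again did not differ beyond their spread (0.49, SE 0.31, adjusted p = 0.21), and the diaphragm lay 3.10 below the tibialis anterior (difference -3.10, SE 0.29). The gap of the diaphragm to the gastrocnemius and the tibialis anterior was wider at the older age by the test of the change given further on.

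For Myh8 the order at 6 months was gastrocnemius, tibialis anterior, diaphragm and soleus. The first pair differed by less than 1.5-fold (0.47, SE 0.18, adjusted p = 0.018). At 27 months the tibialis anterior stood above the gastrocnemius, also by less than 1.5-fold (gastrocnemius minus tibialis anterior -0.52, SE 0.17, adjusted p = 0.0078), and the diaphragm exceeded the soleus by 0.69 (SE 0.19, adjusted p = 6.8e-04) in place of 2.71 (SE 0.28) at 6 months. The soleus remained the muscle with the least Myh8.

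For Actc1 the soleus led at both ages. At 6 months the gastrocnemius and diaphragm followed without a difference beyond their spread (diaphragm minus gastrocnemius -0.23, SE 0.27, adjusted p = 0.46), and the tibialis anterior was the lowest, below the diaphragm by a small margin (0.62, SE 0.28, adjusted p = 0.035). At 27 months the tibialis anterior had moved up beside the gastrocnemius (gastrocnemius minus tibialis anterior -0.30, SE 0.24, adjusted p = 0.33) and the diaphragm was the lowest.

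For Tnnt2 the soleus was again the highest, at 6 months by 2.42 over the diaphragm (diaphragm minus soleus -2.42, SE 0.27) and by 4.46 over the tibialis anterior (SE 0.48). The gastrocnemius and tibialis anterior did not differ beyond their spread at 6 months (0.41, SE 0.62, adjusted p = 0.61). The diaphragm, which held more Tnnt2 than both fast limb muscles at 6 months (by 1.63, SE 0.49, over the gastrocnemius and 2.04, SE 0.51, over the tibialis anterior), was 0.90 below the tibialis anterior at 27 months (difference -0.90, SE 0.23, adjusted p = 3.4e-04) and did not differ beyond its spread from the gastrocnemius (-0.34, SE 0.25, adjusted p = 0.21). The gastrocnemius was below the tibialis anterior at 27 months by less than 1.5-fold (-0.55, SE 0.24, adjusted p = 0.047). For Myl4 the 3 limb muscles did not differ at either age by limma-voom, at an unadjusted p under 0.05, by edgeR or by DESeq2, each of which gave 0 pairs, and the diaphragm lay below each of them.

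**Figure D3:**
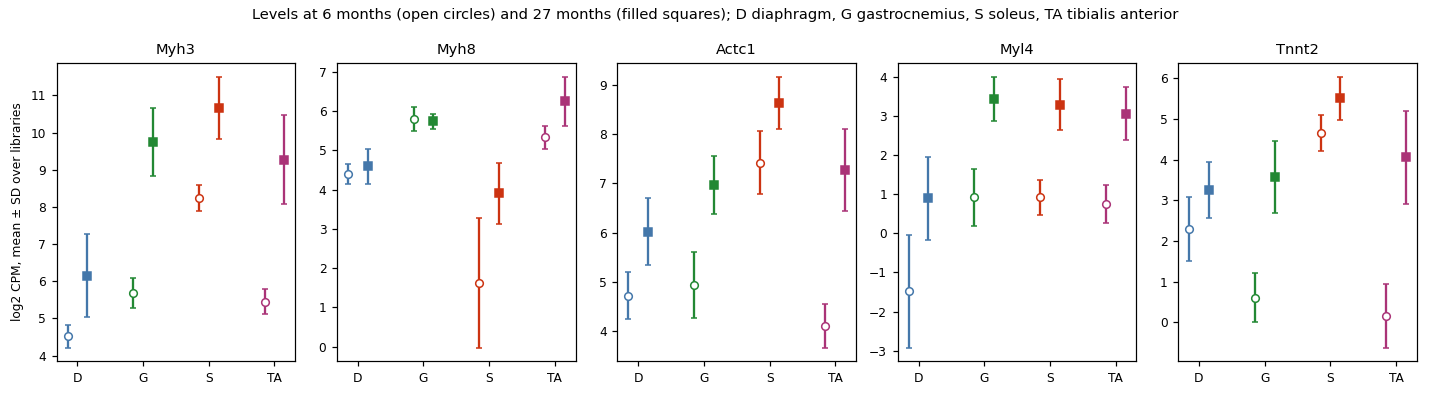
Level of each gene as log2 CPM, mean and SD over the libraries of a muscle, at 6 months (open circles) and 27 months (filled squares), with the vertical axis set for each gene. The soleus is the highest for Myh3, Actc1 and Tnnt2 and the lowest for Myh8 at both ages, and the 3 limb muscles stand level for Myl4.

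Whether the change from 6 to 27 months itself differed between muscles was tested in the same fit. Of 30 differences over the 5 genes, 16 were called. The diaphragm differed from the tibialis anterior in 4 genes (20.3% of all genes did), from the gastrocnemius in 2 (21.6%) and from the soleus in 1 (11.9%). The soleus differed from the tibialis anterior in 4 (15.8%) and from the gastrocnemius in 3 (14.5%), and the gastrocnemius and tibialis anterior differed in 2 (7.32%).

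The Myh3 change was smaller in the diaphragm than in the gastrocnemius (difference -2.43, SE 0.44, adjusted p = 5.6e-07) and the tibialis anterior (-2.17, SE 0.43, adjusted p = 4.1e-06), and smaller in the soleus than in the tibialis anterior (-1.36, SE 0.43, adjusted p = 0.0066). Between the diaphragm and the soleus the difference was -0.81 (SE 0.43, adjusted p = 0.14), and it was called only with sample quality weights (-1.02). The Tnnt2 change was smaller in the diaphragm and the soleus than in either fast limb muscle, with differences from -1.97 (SE 0.55, diaphragm minus gastrocnemius) to -3.06 (SE 0.52, soleus minus tibialis anterior). Between the diaphragm and soleus Tnnt2 differed by 0.12 (SE 0.35, adjusted p = 0.82).

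The Actc1 change was larger in the tibialis anterior than in each other muscle, by 1.87 over the diaphragm (diaphragm minus tibialis anterior -1.87, SE 0.36), 1.95 over the soleus (soleus minus tibialis anterior -1.95, SE 0.36) and 1.15 over the gastrocnemius (gastrocnemius minus tibialis anterior -1.15, SE 0.38, adjusted p = 0.012). The Myh8 change was larger in the soleus than in the other muscles, by 2.02 over the diaphragm (diaphragm minus soleus -2.02, SE 0.34), 2.29 over the gastrocnemius (gastrocnemius minus soleus -2.29, SE 0.34) and 1.3 over the tibialis anterior (SE 0.33, adjusted p = 6.5e-04). The last of these was not called by edgeR (0.49, adjusted p = 0.25) or DESeq2 (0.49, adjusted p = 0.27).

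For Myl4 the change differed in no pair of muscles by limma-voom, at an unadjusted p under 0.05, by edgeR or by DESeq2, with 0 pairs each. The differences ran from -0.13 (SE 0.70, diaphragm minus gastrocnemius) to 0.19 (SE 0.49, gastrocnemius minus tibialis anterior), and the SE of 0.46 to 0.70 leaves room for differences of 1 log2 unit.

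Some pairs of genes were closest in the gastrocnemius or the soleus at 27 months, but the highest value within a muscle was that of Myh3 with Tnnt2 in the tibialis anterior. Over its 12 libraries of 27 months the Pearson correlation of log2 CPM was 0.957 (Spearman's rho 0.951) for Myh3 with Tnnt2, 0.734 for Myh3 with Myh8, 0.606 for Myh3 with Actc1 and 0.409 for Myh3 with Myl4. In the 11 gastrocnemius libraries of 27 months it was 0.803 for Myh3 with Actc1 and 0.717 for Myh3 with Tnnt2, but -0.246 for Myh3 with Myh8. In the 12 soleus libraries the closest pair was Myh8 with Myl4 (0.747), and Myh3 with Actc1 stood at -0.0226. In the 12 diaphragm libraries Myh3 with Myh8 stood at 0.61. These are descriptions over libraries that share a muscle, an age and a collection day.

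**Figure D4:**
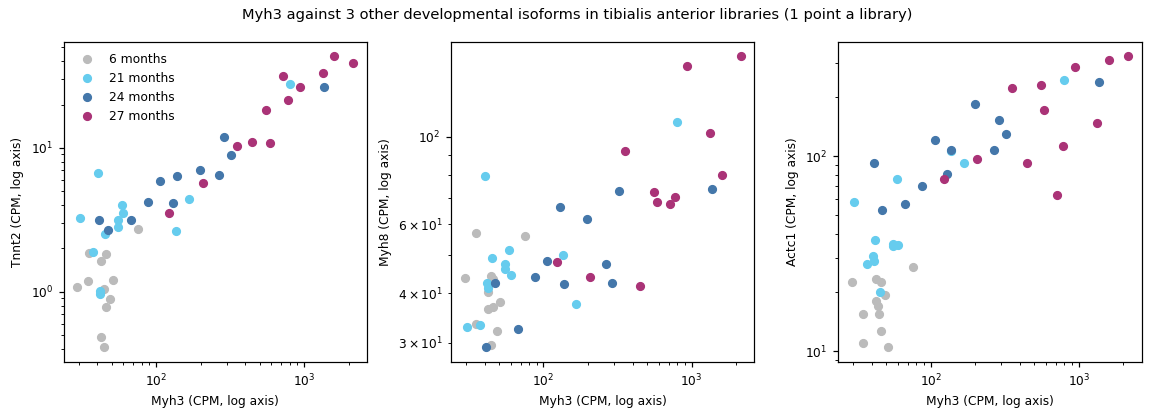
Level of Tnnt2, Myh8 and Actc1 (vertical axes) against Myh3 (horizontal axes) in the tibialis anterior libraries of 6, 21, 24 and 27 months, as CPM on log axes with 1 point a library. Tnnt2 follows Myh3 from 123 to 2148 CPM at 27 months, and replicate 7 of 21 months, at 796 CPM of Myh3, lies among the 27-month libraries.

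Over all libraries with group means removed, Myh3 correlated with Tnnt2 at 0.474, with Actc1 at 0.406, with Myl4 at 0.257 and with Myh8 at 0.244. Tnnt2 and Myl4 were the pair with the lowest value apart from that of Myh8 with Actc1 (0.124 and 0.0643). Over the 28 group means the pairs ran from Actc1 with Tnnt2 at 0.918 and Myh3 with Actc1 at 0.852 to Myh8 with Tnnt2 at -0.70.

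Of 10398 other genes compared, those most like Myh3 over the 28 group means were Cdh13 (Pearson r = 0.979), Cnp (0.964) and Fam214b (0.963), and those most like it over the deviations of the single libraries were Macf1 (0.73), Clic4 (0.729) and Erbb2 (0.697). Spearman's rho of these deviations was lower, at 0.518 for Macf1, 0.595 for Clic4 and 0.51 for Erbb2. Erbb2 encodes a receptor of the neuregulin pathway, and Macf1 a linker of microtubules and actin. Tnnt2 was most like Lrrc14 (0.977), Eef1a1 (0.977) and Usp20 (0.974) over the group means, and over the deviations it was most like Eef1a1 (0.598), the neural cell adhesion molecule Ncam1 (0.571) and Mill1 (0.555). Eef1a1 encodes the translation elongation factor that muscle uses before birth and exchanges for another form later. It was the only gene in both lists of a member.

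For Actc1 the nearest genes over the group means were Anxa7 (0.961), Cyb5r3 (0.96) and Spcs1 (0.952), and over the deviations those given here were Dynlt1 (0.43) and the acetylcholine receptor subunit Chrnd (0.426). For Myl4 they were Irx3 (0.947), Traf2 (0.90) and Plxnb2 (0.894), and Mettl2b (0.38), Tmsb10 (0.365) and Ephb3 (0.328). For Myh8 they were Src (0.976), Mrln (0.975) and Mylpf (0.974), and Tph1 (0.332), Adap2 (0.32) and Mustn1 (0.314). The values over deviations were thus weak for Myh8 and Myl4, and no gene exceeded 0.5 over the deviations for these members or for Actc1, against 186 genes for Myh3 and 17 for Tnnt2. Over the group means a value above 0.5 was common, reached by 1474 genes for Myl4, the fewest, and 3366 for Myh8, the most, of the 10398 compared.

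Related genes of the sarcomere and of muscle formation were set beside the 5. Of the 11 adult counterparts (Acta1, Myh1, Myh2, Myh4, Myh7, Myl1, Myl2, Myl3, Mylpf, Tnnt1 and Tnnt3) 5 rose in the soleus at 27 months, 1 rose in the diaphragm, 1 fell in the gastrocnemius and 3 fell in the tibialis anterior. Their median change was 1.09, 0.10, -0.32 and -0.39 in that order, where the median over all genes tested was 0.02, 0.00, 0.04 and 0.02. The values of the fast myosin Myh4 were 3.08, 1.37, -1.27 and -1.50, and those of Myh1, another fast myosin, 3.22, -0.30, -0.13 and -0.07, with a call for Myh1 in the soleus alone, and the diaphragm change of Myh4 was not called by edgeR (0.91, adjusted p = 0.077). No adult gene of the list was called higher in the fast limb muscles, while in the soleus fast isoforms and developmental isoforms were both higher.

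Of the 8 other developing or cardiac sarcomere genes (Myh6, Myh7b, Myl6b, Myl7, Tnni3, Acta2, Mybph and Mybpc3) 7 were tested in the soleus, with 1 higher and 1 lower, 6 in the tibialis anterior, with 2 higher and 2 lower, 6 in the gastrocnemius, with 1 of each, and 6 in the diaphragm, with 1 higher. Mybph, a myosin binding protein, rose in all 4 muscles, by 1.95, 1.71, 2.86 and 3.11 (diaphragm, gastrocnemius, soleus, tibialis anterior). Mybpc3, the cardiac myosin binding protein, fell by 2.92 in the gastrocnemius, by 2.21 in tibialis anterior and by 2.18 in soleus from medians of 0.34 to 0.403 CPM, and was below the filter in the diaphragm. The list as a whole had median changes of -0.03, -0.08, -0.18 and -0.16 (same order as for Mybph).

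Of 7 listed myogenic regulators and fusion genes (Myod1, Myog, Myf5, Myf6, Pax7, Cdh15 and Tmem8c, the older symbol of the myomaker gene) 2 rose in the diaphragm and 5 in each limb muscle, and 1 fell in the tibialis anterior. Their median changes were 0.08, 1.45, 0.77 and 1.15, again for diaphragm, gastrocnemius, soleus and tibialis anterior, the order also of the values that follow. Myog, the regulator of myoblast differentiation, rose by 1.05, 2.56, 0.79 and 3.76, and Tmem8c by 2.32, 2.63, 1.86 and 5.00. Tmem8c stood at 0.0948, 0.265 and 0.583 CPM in the tibialis anterior at 6 months and at 2.54, 8.63 and 20.1 CPM at 27 months. Over the deviations of all libraries Myh3 correlated with Myog at 0.424, with Myod1 at 0.386 and with Pax7 at 0.274.

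**Figure D5:**
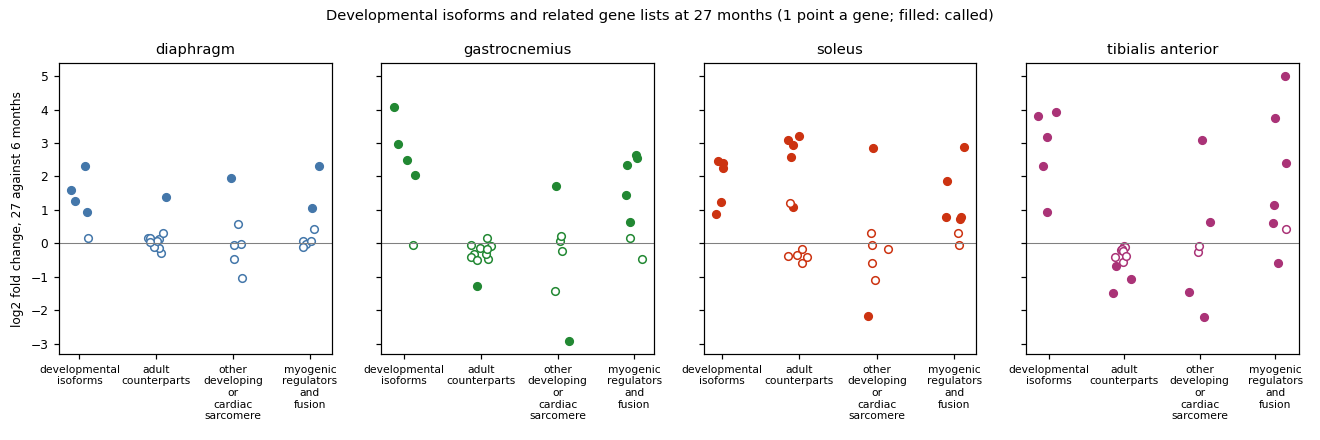
Log2 fold change at 27 against 6 months (vertical axis) of the 5 developmental isoforms and of 3 related gene lists (horizontal axis) in each muscle, with 1 point a gene, filled where called. All filled points of the developmental isoforms lie above 0, while the adult counterparts split by muscle, with 5 filled points above 0 in the soleus and 3 below 0 in the tibialis anterior.

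Actc1, Myl4 and Tnnt2 are also heart genes, so the markers of other cells were read beside them. Of 8 cardiac markers (Myh6, Myl7, Nppa, Nppb, Tnni3, Mybpc3, Ryr2 and Nkx2-5) the median of Myl7, Nppa and Nppb was 0 in every muscle at both ages, and 1 of 3 tested markers rose in the tibialis anterior, 0 of 4 in the soleus, 1 of 3 in the gastrocnemius and 0 of 4 in the diaphragm. Of the same tested markers 2 fell in the tibialis anterior, 1 in the soleus, 1 in the gastrocnemius and 0 in the diaphragm. Their median changes were -1.47, -0.50, -1.44 and 0.20 in that order. The sum of the 8 went from 12.9 to 141 CPM (median 75.0) at 6 months to 5.17 to 248 CPM (median 92.1) at 27 months in the diaphragm, from 14.3 to 92.2 (median 35.4) to 2.2 to 90.6 (median 19.5) in the gastrocnemius, from 32.8 to 525 (median 237) to 14.4 to 374 (median 164) in the soleus and from 2.88 to 23.6 (median 9.2) to 3.22 to 18.4 (median 4.66) in the tibialis anterior. Other markers of the list were present, with Myh6 at medians of 70.9 and 87.7 CPM in the diaphragm and 234 and 161 CPM in the soleus at 6 and 27 months. The marker that rose was Ryr2, from a median of 0.639 to 2.24 CPM in the tibialis anterior and from 0.572 to 1.07 CPM in the gastrocnemius. The part of heart-type cells in the rise of Actc1, Myl4 and Tnnt2 was not tested.

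Of 5 markers of satellite cells and myoblasts, Myod1 and Myf5 rose in all 3 limb muscles, while Pax7, the marker of the stem cells themselves, was called in none of the 4 muscles. The median of Myod1 went from 79.6 to 225 CPM in the gastrocnemius, from 11.3 to 89.4 CPM in the soleus and from 103 to 243 CPM in the tibialis anterior. The sum of Pax7, Myf5, Myod1, Cdh15 and Chrdl2 went from 90.8 to 157 CPM (median 112) to 142 to 408 CPM (median 263) in the gastrocnemius, from 37.2 to 48.1 (median 42.7) to 35.5 to 272 (median 135) in the soleus, from 106 to 189 (median 139) to 188 to 356 (median 288) in the tibialis anterior and from 73.8 to 156 (median 83.1) to 88.9 to 148 (median 106) in the diaphragm, with 2, 4, 2 and 1 of 5 markers called higher and 1, Cdh15, lower in the tibialis anterior. Their part in the rise of the 5 genes was not tested. Smooth muscle markers (Myh11, Acta2, Cnn1, Tagln and Actg2) rose in 3 of 5 cases in the gastrocnemius and 3 of 5 in the tibialis anterior, in 0 of 5 in the diaphragm and 0 of 5 in the soleus, where 1 fell. Their sum went from 88.9 to 214 CPM to 108 to 386 CPM in the gastrocnemius and from 128 to 231 CPM to 145 to 292 CPM in the tibialis anterior, and their part in the result was not tested. Of 5 red cell markers 1 rose in the tibialis anterior and 1 in the soleus. Of 5 listed markers of the fibre itself (Ckm, Acta1, Tnnc2, Tnnc1 and Actn3) 2 fell in the gastrocnemius, 3 fell in the tibialis anterior and 2 rose in the soleus.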

How the data were processed

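Count files held raw counts per gene, whole numbers with no normalization, deposited by the authors for each library. Per the study's methods, total RNA was depleted of ribosomal RNA, stranded libraries were read as pairs, and the ArrayStudio pipeline counted reads on the B6.0 rat genome with an in-house RefSeq gene model. Groups were read from the sample titles. Lines of a symbol were summed. Genes were kept with filterByExpr (minimum count 10, minimum total 15), scaled with TMM in edgeR 4.0.16 and fitted with limma-voom (limma 3.58.1, R 4.3.3), for each muscle over all ages against 6 months, and over the 28 groups together, on 12784 genes, for muscle pairs and for the difference in change. Tests were two-sided. The study's methods name limma with Bonferroni adjustment; Benjamini-Hochberg adjustment was used here, with Bonferroni, edgeR's quasi-likelihood test, DESeq2 1.42.0, RLE and total-count scaling, no filter, a 2-fold threshold, sample quality weights, a replicate block and single libraries left out as alternatives. Log2 CPM carried a prior count of 0.5. Trends compared null, linear and logistic models by BIC (margin 6, and 2 for the logistic form, with inflections after 21 months late). A library held 17.6 to 85.3 M counts. Per the study's supplement each sample of a muscle came from its own animal, so p-values measure the spread between animals of a muscle. Which libraries of different muscles share an animal is not in the labels, so comparisons between muscles treat libraries as independent. The scripts were tested on simulated data.

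The named genes were the 5 members, the 2 genes of each related list with the largest mean absolute change at 27 months, and the 3 genes most like each member over the group means and over the deviations, of which 1 is not reported here. Promoter sequences were taken from RefSeq, where all 5 symbols matched. The members and lists were chosen with earlier results of these data known, so no test is adjusted over the list alone. The 4 single libraries left out for high Myh3 at 21 and 24 months, and the 3 of 21 months left out for their running numbers, were chosen after the data were seen.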

Additional observations from a re-analysis of the deposited data

Results flagged for a closer look

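Of 15 gastrocnemius groups with 9 or 10 libraries, 3 ages for each of the 5 genes, 2 held a library far from the others. The cut-off is passed by chance in about 1 in 20 separate groups. The 5 genes share the libraries of an age, so no excess can be read from this. Groups of more than 10 libraries, among them all those of the other muscles, were not examined. Gastrocnemius replicate 5 of 21 months held 111 CPM of Myh8, and the next highest library held 62.2 CPM. Replicate 7 of 24 months held 26.6 CPM of Tnnt2, and the next highest library held 8.49 CPM.

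The change from 6 to 27 months differed between muscles in 16 of 30 tests (limma-voom interaction contrasts, on the log2 scale, first muscle minus second). For Myh3 the differences were -2.43 (diaphragm minus gastrocnemius), -2.17 (diaphragm minus tibialis anterior), 1.62 (gastrocnemius minus soleus) and -1.36 (soleus minus tibialis anterior). For Tnnt2 they were -1.97 (diaphragm minus gastrocnemius), -2.94 (diaphragm minus tibialis anterior), 2.09 (gastrocnemius minus soleus) and -3.06 (soleus minus tibialis anterior). For Myh8 they were -2.02 (diaphragm minus soleus), -0.72 (diaphragm minus tibialis anterior), -2.29 (gastrocnemius minus soleus), -0.99 (gastrocnemius minus tibialis anterior) and 1.3 (soleus minus tibialis anterior). For Actc1 they were -1.87 (diaphragm minus tibialis anterior), -1.15 (gastrocnemius minus tibialis anterior) and -1.95 (soleus minus tibialis anterior). Adjusted p ran from 2.4e-09 to 0.012 over the 16.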

How the results depend on the processing

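Over the alternatives other than single libraries left out, 380 counts stayed within 1.5 times the value given and 46 did not, and 415 changes kept their direction and call while 19 lost a call, 4 gained one and 12 turned sign. With 1 library of 6 or 27 months left out, 464 changes kept both and 1 did not. That was the uncalled Myh8 change in the gastrocnemius, which ran from -0.0963 to 0.0216 and turned positive without replicate 4 of 6 months. Below, most counts of members under an alternative stand without the share of all genes called under it. Such counts have no background and cannot be read as an excess of the members.

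With Bonferroni adjustment the members called were 0 at 12, 21 and 24 months and 1 at 27 months in the diaphragm, 0 at 12, 18 and 21 months in the gastrocnemius, 1 at 18 and at 21 months in the tibialis anterior and 0 at 21 and 24 months in the soleus. All genes called at 27 months were then 538 in the diaphragm and 1083 in the soleus, and those of the other muscles and ages with this adjustment are not given here. Between muscles at 6 months it left 1 member for the diaphragm and gastrocnemius, 0 for the gastrocnemius and tibialis anterior and 1 for the tibialis anterior and diaphragm, and in the change 1, 1, 0 and 2 for the diaphragm and gastrocnemius, gastrocnemius and soleus, gastrocnemius and tibialis anterior, and soleus and tibialis anterior. It ended the 27-month calls in the diaphragm of Actc1 (1.26), Myl4 (2.33) and Tnnt2 (0.94) and in the soleus of Tnnt2 (0.88), and the differences in change of Myh3 between gastrocnemius and soleus (1.62) and soleus and tibialis anterior (-1.36), of Myh8 between the tibialis anterior and the diaphragm (-0.72), gastrocnemius (-0.99) and soleus (1.3), of Actc1 between gastrocnemius and tibialis anterior (-1.15), and of Tnnt2 between the gastrocnemius and the diaphragm (-1.97) and soleus (2.09).

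With a 2-fold threshold 0 members were called at 21 and 24 months in the diaphragm and in the soleus, 2 between diaphragm and tibialis anterior at 6 months, 0 between gastrocnemius and tibialis anterior at 6 months and 1 in their change, and all genes called at 27 months were 248, 1068, 791 and 1470 (diaphragm, gastrocnemius, soleus, tibialis anterior). Calls of Tnnt2 in the diaphragm (0.94) and soleus (0.88), of Myh8 in the tibialis anterior (0.93) and of the Myh8 differences of the diaphragm (-0.72) and gastrocnemius (-0.99) from the tibialis anterior ended by construction. Without the low-count filter 1 member was called in the diaphragm at 24 months and 1 in the tibialis anterior at 18 months. With edgeR and with DESeq2 4 members were called in the tibialis anterior and 2 in the soleus at 21 months, 1 between gastrocnemius and tibialis anterior at 27 months, and the Myh8 difference between soleus and tibialis anterior was not called (0.491 and 0.493). With sample quality weights 0 members were called in the gastrocnemius at 12 months, 2 at 21 and 1 at 24 months in the soleus and 2 in the change between diaphragm and soleus, where Myh3 was then called (-1.02), and Actc1 was called between gastrocnemius and soleus (0.937). With a BIC margin of 10, 3 members were age-related in the soleus, where 11.3% of all genes tested were.

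Total-count scaling moved the median of all genes at 27 months from 0.00 to 0.04 in the diaphragm, from 0.04 to 0.32 in the gastrocnemius, from 0.02 to 0.34 in the tibialis anterior and from 0.02 to 0.16 in the soleus. With it 3 members differed between diaphragm and tibialis anterior at 6 months, Actc1 was called in its change between the gastrocnemius and the diaphragm (-1.0) and soleus (0.926), and the uncalled Myh8 change in the gastrocnemius (0.23) and Myh8 difference between diaphragm and gastrocnemius (-0.0174) changed sign. So did the uncalled differences of Actc1 (-0.0792) and Tnnt2 (-0.0497) between diaphragm and soleus and of Myl4 between tibialis anterior and the diaphragm (-0.245) and soleus (-0.0822). Sign changes of uncalled differences with other tools were those of Myl4 between diaphragm and tibialis anterior (-0.507 with edgeR, -0.545 with DESeq2, -0.0387 with quality weights) and between gastrocnemius and soleus (-0.00608 with DESeq2, -0.111 with quality weights), and of Tnnt2 between diaphragm and soleus (-0.0373 with quality weights). The cause of these moves was not tested.

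Libraries of different muscles share replicate numbers, but these share only a number by the labels. Over genes with a mean log2 CPM over 2, the median correlation of same-numbered libraries of an age was 0.0341 to 0.2 between muscle pairs, against -0.0264 to -0.0126 for other numbers. The lowest correlation of a single pair of same-numbered libraries was -0.617. For single members, with group means removed, same-numbered libraries correlated from -0.166 (Myh8, soleus and tibialis anterior) to 0.522 (Tnnt2, diaphragm and soleus). Myh3 stood at 0.473 and Actc1 at 0.406 between soleus and tibialis anterior. The comparisons between muscles treat these libraries as independent, apart from the replicate block. With the replicate block 2 members were called in the soleus at 21 months, and no other count moved past 1.5 times. With 3 to 125 counts of Myl4 in the young diaphragm, depth limits that comparison.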
